A study of Macaca fascicularis with 23 samples.

Results

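DNA repair was followed in monkey liver through 30 genes, taken by symbol from the annotation of the array and covering base excision repair, direct reversal, nucleotide excision repair, mismatch repair, end joining, break signalling and the damage-inducible GADD45 genes. Of 12625 probe sets on the array, 62 named 1 of these genes, and 59 of them named it alone. The rule that picks the probe sets uses no measured value, but the genes were listed with earlier results of these data known. Whether a given human probe set pairs with the monkey transcript was not checked.

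DNA repair removes damage by routes that share few proteins. In base excision repair a glycosylase such as OGG1 cuts out a damaged base, APEX1 nicks the strand, and POLB, XRCC1, a ligase and PARP1 complete the patch, while nucleotide excision repair removes a short stretch around a bulky lesion and end joining reseals double-strand breaks with the Ku proteins XRCC5 and XRCC6. In rats and mice, drugs that activate the nuclear receptor PPAR-alpha enlarge the peroxisome compartment, whose oxidases release hydrogen peroxide, and oxidised DNA bases and raised repair gene expression have been described in those species. The comparisons here ask whether repair genes responded in a primate liver given such a drug.

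Livers came from cynomolgus monkeys (Macaca fascicularis), with 1 array per animal and 23 animals in all. Ciprofibrate, a fibrate that activates PPAR-alpha, was given at 400 mg/kg/day over 4 days to 2 animals, beside 2 given vehicle alone for the same time. After 15 days the groups were vehicle (3 animals) and 3, 30, 150 and 400 mg/kg/day, with 4 animals each. The labels give neither the vehicle's make-up nor strain, sex, age or batch, and no genetic change is named for any group.

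Above the intensity filter, a mean log2 value of at least 5.80 (an intensity of 39.7), lay 47 of the 62 probe sets, and 26 of the 30 genes were represented by a probe set naming them alone. The glycosylase UNG and the ligases LIG1 and LIG4 lay below the filter. ERCC5, the endonuclease that cuts on the 3′ side in nucleotide excision repair, had only probe sets that also named the read-through gene BIVM-ERCC5. The 15 probe sets that were not tested had mean intensities from 3.86 to 42.4. Among the 47 tested, 35 reached the limit in all 7 groups. As another measure of background, 15 opposite-strand control probe sets had means from 13.3 to 230 with a median of 74.9, and 36 of the 62 repair probe sets lay above that median and 9 above the highest control. XRCC6 was the brightest, with a mean intensity of 1341, followed by DDB1 with 565. Intensities depend on each probe set's own probes and set no order of transcript abundance between genes.

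No repair probe set was called at any dose or time. The call required an adjusted p under 0.05 by limma's moderated test, adjusted over all 7535 probe sets tested. At 15 days, comparing 400 mg/kg/day with vehicle, 0 of 47 repair probe sets were called, where 2.14% of all tested probe sets were, and 1 of 47 had an unadjusted p under 0.05, where 12.5% of all did. The median log2 difference of the 26 genes was 0.03, against -0.03 over all 5462 genes, and single genes ran from -0.56 for GADD45B to 0.79 for the ligase LIG3. The 95% interval lay between -1 and 1 for 15 of the 26 genes, and its upper end was below 1 for 21. The exceptions at the upper end were MUTYH, LIG3, XPA, RAD23B and PRKDC. Bounds of -1 and 1 mean 2-fold either way in intensity plus the pseudocount added before logs were taken. In intensity alone they are wider than 2-fold, most of all for dim probe sets.

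The lower doses and the shorter time gave no call among the repair genes either. At 150 mg/kg/day 0 of 47 were called (0.677% of all), with 4 at an unadjusted p under 0.05 (11.3% of all), 2 of them higher and 2 lower. At 30 mg/kg/day 0 were called (0.0133% of all) and 2 had an unadjusted p under 0.05 (9.82% of all). At 3 mg/kg/day 0 were called (0% of all) and 5 had an unadjusted p under 0.05 (10% of all), 2 higher and 3 lower. After 4 days of 400 mg/kg/day 0 were called (0.292% of all) and 5 had an unadjusted p under 0.05 (7.63% of all), 2 higher and 3 lower. Median differences of the 26 genes were 0.20 at 150, 0.20 at 30, 0.03 at 3 mg/kg/day and 0.01 at 4 days, where all genes had medians of -0.03, -0.01, -0.01 and -0.05. Taken as the mean over all probe sets of each gene, the median at 150 mg/kg/day was 0.06.

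**Figure D1:**
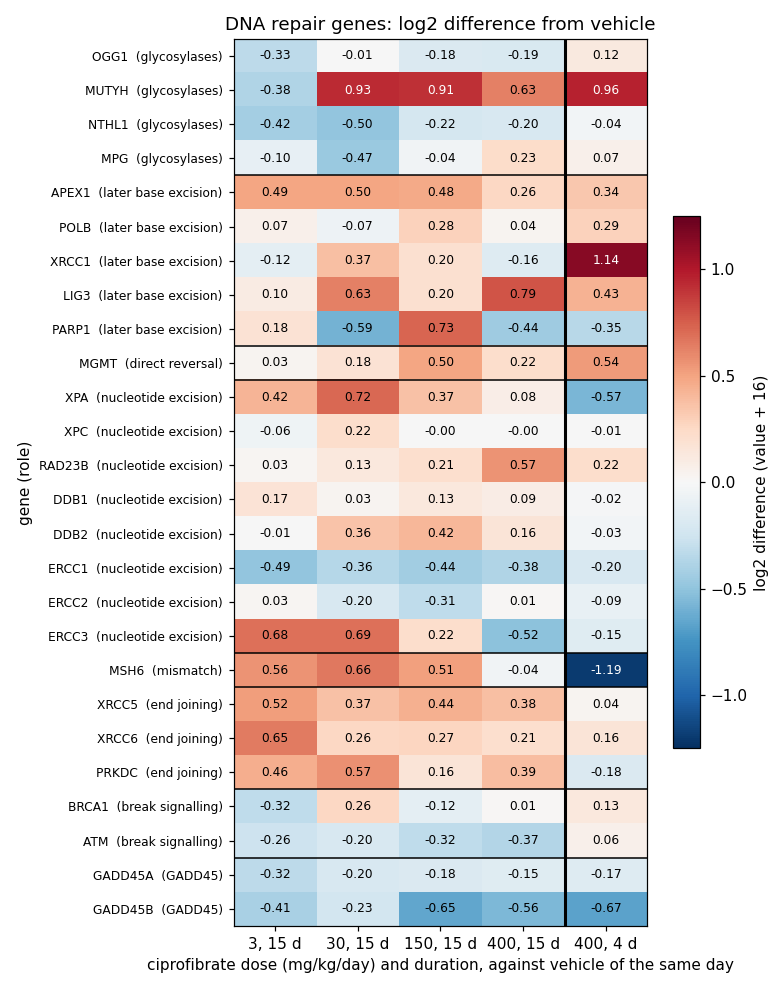
Log2 difference from vehicle of the same day for the 26 represented repair genes (rows, grouped by role) at each dose in mg/kg/day (columns; the last is the 4-day group), each cell giving its value. Differences run from -1.19 for MSH6 to 1.14 for XRCC1, both at 4 days, and none was called.

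Base excision repair is the route for oxidised bases. Its glycosylases showed no common direction: of 4 represented genes, 2 were above and 2 below vehicle at 400 mg/kg/day over 15 days, and 0 were above at 3 mg/kg/day. OGG1, the glycosylase for 8-oxoguanine, had intensities of 461.7, 311 and 480.6 in the 15-day vehicle animals and of 372.7, 276.1, 407.7 and 392.7 at 400 mg/kg/day on its brightest probe set. The treated animals lay within or below the vehicle range, and the difference was -0.19 (95% interval -0.68 to 0.31, adjusted p = 0.844). At 4 days it was 0.12 (-0.53 to 0.76), from 296.7 and 321.8 in vehicle animals to 386 and 293.9. The dimmest tested OGG1 probe set gave the smallest adjusted p of the repair list at 150 mg/kg/day, in the lower direction (-1.24, -2.12 to -0.36, adjusted p = 0.221). Its intensities there were 55.3, 10.9, 13 and 13.6, against 68.8, 85.8 and 53.9 in vehicle animals, so that 3 of 4 treated animals lay below the filter's limit.

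MUTYH, which removes adenine paired with 8-oxoguanine, had the widest spread among the represented genes, with a within-group SD of 0.76 on the log2 scale. Its vehicle animals had 17.2, 155.4 and 119 at 15 days, and those at 150 mg/kg/day had 140.3, 148.4, 173 and 166.5. The groups overlapped, and the MUTYH difference of 0.91 (-0.17 to 1.99, adjusted p = 0.543) was 0.18 without vehicle replicate 1, the low animal. At 3 mg/kg/day MUTYH had 18.8, 100.4, 114.4 and 30.8, and at 400 mg/kg/day 88.5, 166.1, 158.3 and 105.4. These values are from the brighter MUTYH probe set. The dimmer one went the other way except at 3 mg/kg/day. It differed by -0.49 at 30, -0.89 at 150 and -0.14 at 400 mg/kg/day over 15 days, and by -0.78 at 4 days. NTHL1, which removes oxidised pyrimidines, was below vehicle in all 5 comparisons with vehicle, from -0.04 at 4 days to -0.50 at 30 mg/kg/day. MPG, the glycosylase for alkylated purines, differed by 0.23 (-0.29 to 0.76) at 400 mg/kg/day over 15 days.

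In the later steps of base excision repair, APEX1 was above vehicle at each dose and both times, without a call. APEX1, the endonuclease that acts after the glycosylases, had 369.7, 166.9 and 348.7 in vehicle animals at 15 days. At 400 mg/kg/day it had 389.8, 263.7, 285 and 438.6, at 150 mg/kg/day 370.2, 373.5, 406.3 and 430.4, at 30 mg/kg/day 362.5, 362.7, 352.1 and 553.7, and at 3 mg/kg/day 435, 337.2, 345.8 and 494.5. The animals at 400, 30 and 3 mg/kg/day overlapped those given vehicle, and the lowest animal at 150 mg/kg/day lay just above the highest vehicle animal. The APEX1 difference was 0.26 (-0.23 to 0.75, adjusted p = 0.751) at 400, 0.48 (-0.02 to 0.97, adjusted p = 0.458) at 150, 0.50 (0.00 to 0.99, adjusted p = 0.508) at 30 and 0.49 (-0.00 to 0.98, adjusted p = 0.501) at 3 mg/kg/day. All 4 values share the same 3 vehicle animals, of which replicate 2 was the lowest of all 23 animals for APEX1. Without it the APEX1 differences were -0.09 at 400, 0.13 at 150, 0.15 at 30 and 0.14 at 3 mg/kg/day. At 4 days APEX1 had 498.5 and 402.7 in vehicle animals and 551.3 and 590 at 400 mg/kg/day, a difference of 0.34 (-0.31 to 0.98, adjusted p = 0.951).

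By the brightest probe set of each gene, XRCC1, the scaffold of the repair patch, had the largest positive difference at 4 days. Its intensities were 31 and 36.1 in vehicle animals and 140.3 and 60.2 at 400 mg/kg/day (1.14, 0.01 to 2.27, adjusted p = 0.641). The vehicle animals lay below the filter's limit, so the size of this difference depends on the pseudocount. The mean log2 of this XRCC1 probe set over all animals, 5.88, lay just above that limit. Without the treated animals at 4 days that mean would lie just below it, so XRCC1 was tested only because of the group in which it was high. At 15 days XRCC1 had 50.2, 30.5 and 34.6 in vehicle animals and 41, 19.8, 29.9 and 40.7 at 400 mg/kg/day, with a difference of -0.16 (-1.03 to 0.70). PARP1, which binds nicked DNA, was also near the limit, with 53.4, 55.4 and 29 in vehicle animals, 109.9, 68.5, 95.1 and 70.9 at 150 and 43.6, 35.6, 15.1 and 25.2 at 400 mg/kg/day. PARP1 was thus above all vehicle animals in the 150 mg/kg/day group (0.73, -0.19 to 1.65, adjusted p = 0.571) and below vehicle on average at 400 (-0.44, -1.36 to 0.47). The mean log2 of this PARP1 probe set over all animals, 5.86, lay just above the filter's limit. Without the animals at 150 mg/kg/day that mean would lie below it, so PARP1 was tested only because of the group in which it was high. POLB, the polymerase that fills the gap, differed by 0.04 (-0.73 to 0.80) at 400 mg/kg/day over 15 days.

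LIG3, the ligase that works with XRCC1, had 138.9, 49.4 and 133.6 in vehicle animals and 148.7, 174.6, 159.7 and 266.8 at 400 mg/kg/day over 15 days (0.79, -0.20 to 1.78, adjusted p = 0.553). The treated animals lay above all vehicle animals on this probe set, the brighter one. The dimmer LIG3 probe set went the other way, at -0.67 for 400 and at -1.60 (-2.60 to -0.60, adjusted p = 0.319) for 30 mg/kg/day.

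MGMT, which transfers alkyl groups from guanine to itself and so reverses the damage without cutting the strand, was above vehicle in all 5 comparisons on its brighter probe set. Vehicle animals at 15 days had 409.6, 334.1 and 326.5, those at 150 mg/kg/day had 540.5, 486.4, 452.1 and 555.4, and those at 400 had 518.4, 304.1, 524.7 and 356.6. MGMT was higher in all 4 animals at 150 mg/kg/day than in any vehicle animal, whereas at 400 the groups overlapped. The difference was 0.50 (0.06 to 0.94, adjusted p = 0.37) at 150 and 0.22 (-0.22 to 0.66, adjusted p = 0.771) at 400 mg/kg/day. At 4 days MGMT had 413.9 and 502.9 in vehicle animals and 783.3 and 570.8 in treated animals (0.54, -0.04 to 1.11, adjusted p = 0.725). The dimmer MGMT probe set went the other way at 400 mg/kg/day, with -0.66 at 15 days and -0.39 at 4 days. It was above vehicle at 150, 30 and 3 mg/kg/day, with 0.09, 0.74 and 0.43.

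Of 8 represented nucleotide excision repair genes, 5 were above and 3 below vehicle at 400 mg/kg/day over 15 days, with a median of 0.05, and 1 was above at 4 days. RAD23B, the partner of the damage sensor XPC, was the single repair gene with an unadjusted p under 0.05 at 400 mg/kg/day and 15 days. Vehicle animals had 198.8, 360.6 and 302.4, and those at 400 mg/kg/day had 555.9, 382.2, 416 and 355.7. The lowest treated animal lay just below the highest vehicle animal, and the difference was 0.57 (0.05 to 1.08, adjusted p = 0.325). RAD23B differed by 0.03, 0.13 and 0.21 at 3, 30 and 150 mg/kg/day. A second RAD23B probe set was too dim to test, with a mean intensity of 3.86.

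None of the other sensors was called at the highest dose, and the width of their intervals varied. DDB1, the adaptor of the damage-binding ubiquitin ligase, had the smallest within-group SD of the 26 genes, 0.16, and a difference of 0.09 (-0.22 to 0.41) at 400 mg/kg/day over 15 days. DDB2, its damage-binding partner and a p53 target, differed by 0.16 (-0.41 to 0.73). XPC differed by -0.00 (-0.74 to 0.74) and XPA, which checks the lesion, by 0.08 (-0.85 to 1.02). Among the incision and helicase subunits, ERCC2 differed by 0.01 (-0.40 to 0.43) and ERCC1, a subunit of the 5′ endonuclease, by -0.38 (-0.89 to 0.14). Other probe sets gave values down to -0.75 for XPA and up to 0.36 for ERCC1 and 0.49 for ERCC2 in this comparison. On its brightest probe set ERCC1 was below vehicle in all 5 comparisons with vehicle, down to -0.49 at 3 mg/kg/day.

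ERCC3, a helicase of the transcription factor TFIIH, had the smallest p among the represented genes for a difference between any doses at 15 days. At 15 days vehicle animals had 109.4, 50.5 and 48.4, those at 3 mg/kg/day had 77.4, 87.2, 154.2 and 161.2, those at 30 had 77.4, 129.3, 101.9 and 170.2, those at 150 had 79.7, 76.6, 67.6 and 91.3, and those at 400 had 9.7, 59, 40.2 and 80.6. Against vehicle ERCC3 differed by 0.68 (-0.12 to 1.48) at 3 and by -0.52 (-1.32 to 0.29) at 400 mg/kg/day. Compared with 3 mg/kg/day directly, 400 mg/kg/day was lower by 1.20 on the log2 scale (-1.20, -1.94 to -0.46), with an adjusted p of 0.0598. The ranges of those groups overlapped in 1 animal at 400 mg/kg/day.

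By the brightest probe set of each gene, the mismatch repair gene MSH6, which recognises mispaired bases, had the largest negative difference at 4 days. It had 61.5 and 99 in vehicle animals and 22.5 and 28.3 at 400 mg/kg/day (-1.19, -2.18 to -0.21, adjusted p = 0.491), so the groups did not overlap but the treated animals lay below the filter's limit. The dimmer MSH6 probe set had 74.6 and 74.3 in vehicle animals and 3.9 and 44.7 in treated animals. It differed by -1.38 at 4 days and by -0.70 at 400 mg/kg/day over 15 days. At 15 days MSH6 had 13.4, 83.4 and 60 in vehicle animals and 49.7, 23.5, 46.9 and 57.6 at 400 mg/kg/day (-0.04, -0.79 to 0.71). The difference between the 15-day and the 4-day effect of 400 mg/kg/day was not called for any repair probe set (0 of 47, and 0% of all probe sets). For that difference 0 of 47 also had an unadjusted p under 0.05, where 3.37% of all did, and MSH6 and XRCC1 had the smallest p among the genes (adjusted p = 0.999 for both).

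On their brightest probe sets the end-joining genes XRCC5, XRCC6 and PRKDC were above vehicle at all 4 doses at 15 days. Other probe sets of these genes went below it at some doses, down to -0.52 for XRCC5 at 3, -0.72 for XRCC6 at 30 and -0.33 for PRKDC at 30 mg/kg/day. XRCC5, the larger Ku subunit, had 280.5, 307.4 and 243 in vehicle animals. It had 397.1, 470.5, 338.1 and 419.1 at 3, 462.9, 338, 430.4 and 249 at 30, 430.7, 447.2, 346.6 and 313.7 at 150, and 394.7, 375.9, 306.9 and 380.5 at 400 mg/kg/day. The animals at 3 and 150 mg/kg/day lay above all vehicle animals, and those at 30 and 400 overlapped them. The XRCC5 difference was 0.52 (0.12 to 0.93, adjusted p = 0.362) at 3, 0.37 (-0.04 to 0.78, adjusted p = 0.559) at 30, 0.44 (0.03 to 0.85, adjusted p = 0.398) at 150 and 0.38 (-0.03 to 0.79, adjusted p = 0.456) at 400 mg/kg/day. At 4 days this XRCC5 probe set had 291.7 and 291.8 in vehicle animals and 334.5 and 268.4 in treated animals (0.04, -0.50 to 0.57).

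XRCC6, the smaller Ku subunit, was highest at the lowest dose on its brighter probe set. Vehicle animals at 15 days had 1192.9, 888.3 and 1133.8, and those at 3 mg/kg/day had 1756.3, 1433, 1352.7 and 2331.7. XRCC6 was higher in all 4 animals at 3 mg/kg/day than in any vehicle animal, and the difference was 0.65 (0.25 to 1.05, adjusted p = 0.238). At 400 mg/kg/day it had 1487.7, 1003.7, 1234.9 and 1259.2, a difference of 0.21 (-0.19 to 0.61, adjusted p = 0.75), and against the 3 mg/kg/day group directly XRCC6 differed by -0.44 (-0.81 to -0.07, adjusted p = 0.191). PRKDC, the kinase that Ku recruits to a break, differed by 0.46 at 3, 0.57 at 30, 0.16 at 150 and 0.39 (-0.26 to 1.04) at 400 mg/kg/day. The dimmer XRCC6 probe set went the other way, at -0.39 (-1.45 to 0.68) for 3 mg/kg/day against vehicle and at 0.44 (-0.55 to 1.43) for 400 against 3. All of the differences from vehicle at 15 days share the 3 vehicle animals.

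The dimmest XRCC5 probe set gave the smallest adjusted p of the repair list at 4 days. It had 22.6 and 25.3 in vehicle animals and 187.9 and 111.4 at 400 mg/kg/day (2.01, 0.52 to 3.51, adjusted p = 0.372). At 15 days it ranged from 21.5 to 114 in vehicle animals and from 19.8 to 125 at 400 mg/kg/day. Its range thus spanned the same levels in treated and untreated animals at 15 days, and its within-group SD of 0.78 compares with 0.24 for the XRCC5 probe set used above.

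On their brightest probe sets the GADD45 genes were below vehicle on average in all 5 comparisons, and the break signalling genes showed no common direction. BRCA1, which acts in recombination, differed by 0.01 (-0.70 to 0.72) and the kinase ATM by -0.37 (-1.45 to 0.72) at 400 mg/kg/day over 15 days. GADD45A, a p53 target induced by DNA damage, had 260.9, 306.2 and 119 in vehicle animals at 15 days and 205.4, 198.5, 198.9 and 163.6 at 400 mg/kg/day, all 4 inside the vehicle range. The difference was -0.15 (-0.82 to 0.52, adjusted p = 0.921), so a 2-fold higher GADD45A lay outside its interval. At 4 days GADD45A had 278.7 and 219.3 in vehicle animals and 250.5 and 191 in treated animals (-0.17, -1.05 to 0.71).

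GADD45B, its stress-inducible relative, was below vehicle at each dose and both times on its brighter probe set, without a call. The dimmer GADD45B probe set was below vehicle in 4 of the 5 comparisons, farthest at 4 days (-1.66). It was above vehicle at 30 mg/kg/day (0.56, -0.71 to 1.83, adjusted p = 0.802). On the brighter one, vehicle animals at 15 days had 262.8, 220.4 and 184.9, those at 400 mg/kg/day had 160.3, 179.3, 107.2 and 141.5, and those at 150 had 189.3, 115.4, 168.4 and 88.9. All 4 animals at 400 mg/kg/day lay below the lowest vehicle animal, and at 150 the highest treated animal overlapped it. The GADD45B difference was -0.56 (-1.15 to 0.03, adjusted p = 0.436) at 400, -0.65 (-1.23 to -0.06, adjusted p = 0.387) at 150, -0.23 (-0.81 to 0.36) at 30 and -0.41 (-0.99 to 0.18) at 3 mg/kg/day. At 4 days GADD45B had 250.6 and 174.9 in vehicle animals and 142.1 and 112 in treated animals (-0.67, -1.43 to 0.10, adjusted p = 0.775). By the brightest probe set of each gene, 6 genes (APEX1, LIG3, MGMT, RAD23B, XRCC5 and XRCC6) were above vehicle in all 5 comparisons and 4 (NTHL1, ERCC1, GADD45A and GADD45B) below, a description only, since 4 of the 5 comparisons share their vehicle animals. With 1 animal left out, 9 of these 10 genes changed sign in at least 1 of the comparisons, GADD45B being the exception.

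**Figure D2:**
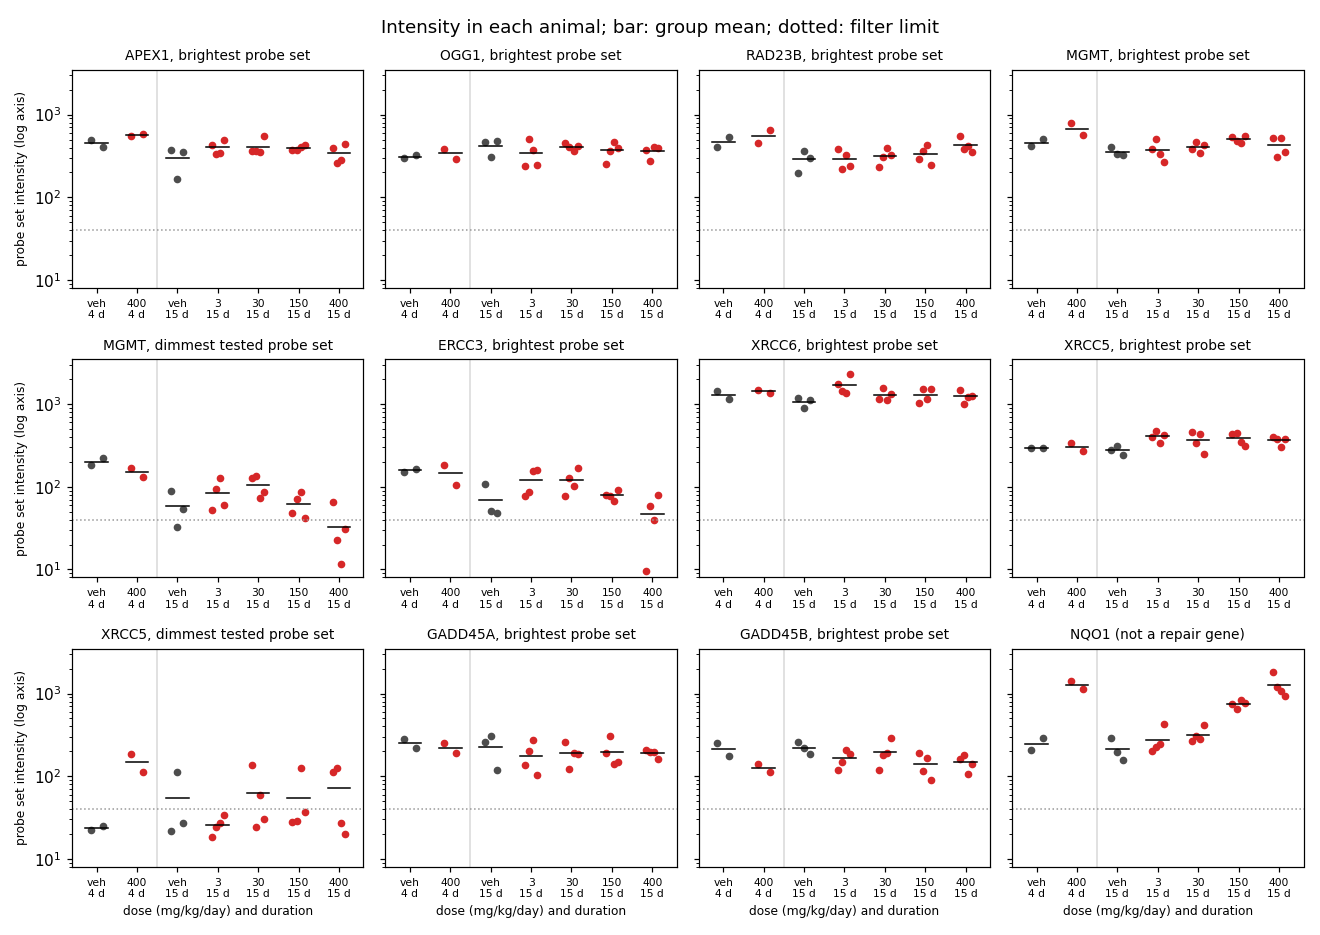
Probe set intensity (log axis) of each animal by group for 11 repair probe sets and for NQO1; grey points are vehicle animals, red points ciprofibrate animals (dose in mg/kg/day over days), bars group means and the dotted line the filter's limit of 39.7. NQO1, from a list chosen with earlier results of these data known, separates 150 and 400 mg/kg/day from vehicle. The GADD45A animals at 400 mg/kg/day over 15 days, 163.6 to 205.4, sit inside the vehicle range.

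Across dose at 15 days, the repair genes were tested for a slope, for any difference and between the highest and lowest dose. The slope per dose step, with the 5 groups from vehicle to 400 mg/kg/day equally spaced, was called for 0 of 47 (3.11% of all), and 3 of 47 had an unadjusted p under 0.05 (13.9% of all). RAD23B had the smallest adjusted p, with a slope of 0.13 per step (0.02 to 0.24, adjusted p = 0.252), then MUTYH with 0.25 (0.02 to 0.49, adjusted p = 0.305) and GADD45B with -0.14 (-0.26 to -0.01, adjusted p = 0.324). The dimmer MUTYH probe set had a slope of the opposite sign, -0.08 per step. The moderated F test for any dose difference called 0 of 47 (3.3% of all), with 8 of 47 at an unadjusted p under 0.05 (17.1% of all). Its smallest adjusted p belonged to the dimmer MGMT probe set (0.109), and its smallest values among the represented genes to ERCC3 (0.163) and PARP1 (0.227). The PARP1 probe set passed the filter only through the animals of its highest group, as given above.

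For 400 against 3 mg/kg/day, the comparison that uses no vehicle animal, 0 of 47 were called (4.18% of all) and 7 of 47 had an unadjusted p under 0.05, 3 higher and 4 lower (17.2% of all). The count was not stable: leaving out 400 mg/kg/day replicate 1 called the dimmer MGMT probe set and the tested ERCC5 probe set, which also names BIVM-ERCC5, leaving out 400 mg/kg/day replicate 4 called ERCC3 (-1.45, adjusted p = 0.0294), and a filter at the 60th percentile called ERCC3 (adjusted p = 0.0461). Each of these was lower at 400 than at 3 mg/kg/day. The dimmer MGMT probe set had 53.1, 93.8, 128.3 and 61 at 3 and 65.9, 23, 11.7 and 30.8 at 400 mg/kg/day, and the ERCC5 probe set had 140.3, 91.3, 79.4 and 99.7 against 89.7, 48.3, 19.6 and 13.4. In both, replicate 1 was the highest of the 400 mg/kg/day animals and overlapped the lower dose, while in ERCC3 that animal was the lowest. The brighter MGMT probe set differed by 0.18 (-0.22 to 0.59) in the same comparison.

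**Figure D3:**
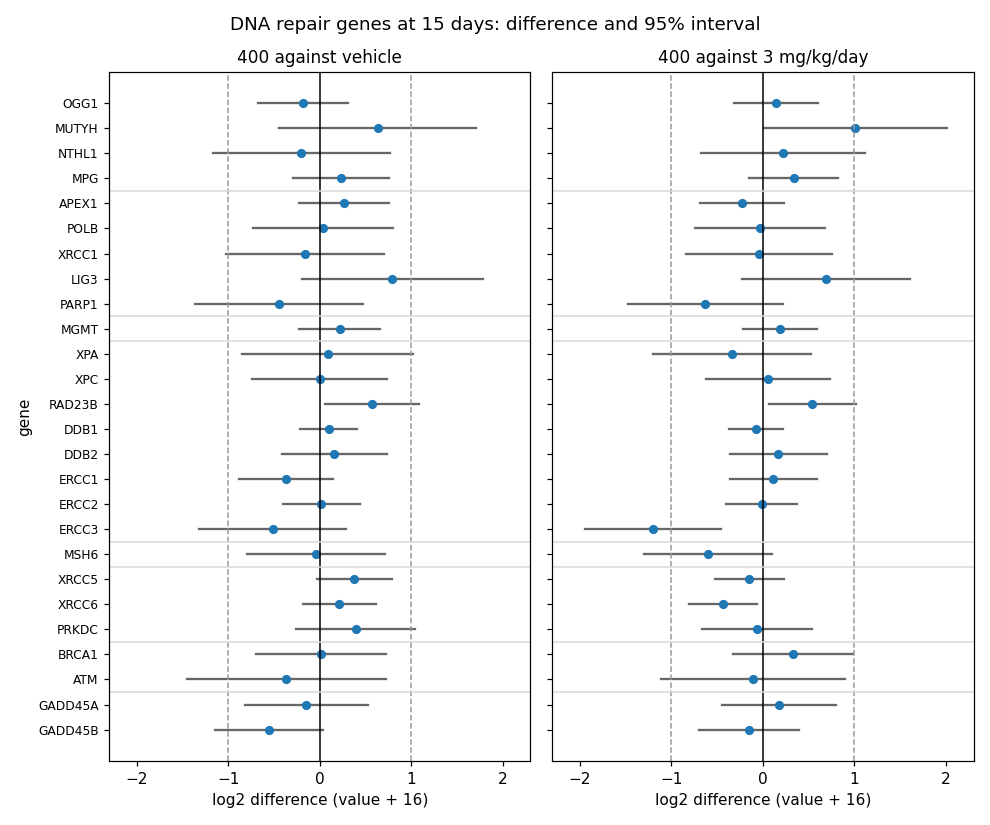
Log2 difference (points) with its 95% interval (lines) for the 26 represented repair genes at 15 days, for 400 mg/kg/day against vehicle (left) and against 3 mg/kg/day (right); dashed lines mark -1 and 1. In the left panel 15 intervals lie between the dashed lines, and in the right panel 17, with ERCC3 at -1.20 the farthest from 0.

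Different probe sets of a gene often disagreed in sign. Of 12 genes with at least 2 tested probe sets of their own, all probe sets had the same sign in 5 at 400 mg/kg/day over 15 days (MSH6, XRCC5, XRCC6, PRKDC and GADD45B), in 5 at 150, in 2 at 30 and in 6 at 3 mg/kg/day, and in 4 at 4 days. At the highest dose and 15 days the 4 probe sets of XRCC5 lay between 0.22 and 0.38, and those of GADD45B at -0.56 and -0.97. The widest spread there was that of LIG3, 1.46 on the log2 scale. Probe sets of 1 gene share its transcript and are not replicates.

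**Figure D4:**
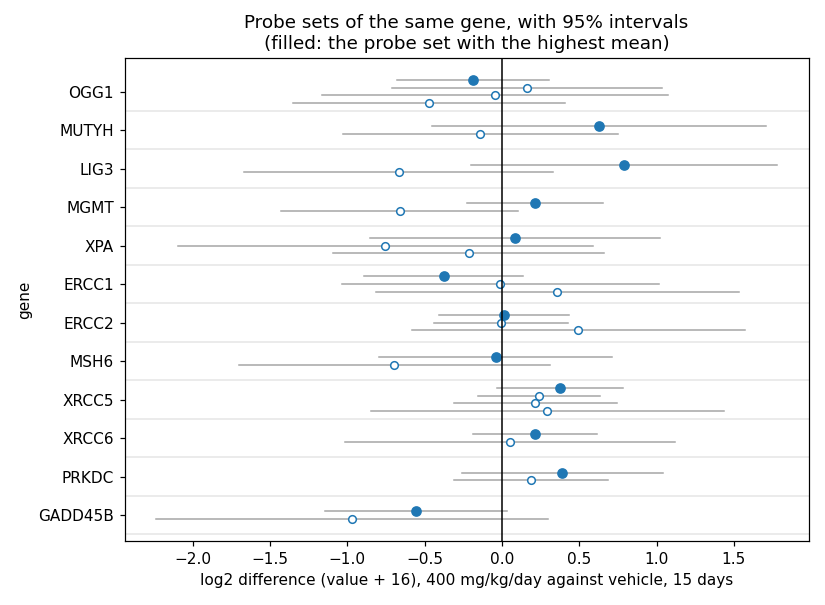
Log2 difference with 95% interval for every tested probe set of the 12 repair genes with at least 2, at 15 days, 400 mg/kg/day against vehicle; filled points are the brightest probe set of a gene. The 4 XRCC5 points lie together between 0.22 and 0.38, whereas the LIG3 points lie 1.46 apart.

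The vehicle animals of the 2 days were compared after their values had been seen. At 15 against 4 days the median difference of the 26 genes was -0.14, where that of all genes was -0.03. By limma 0 of 47 were called (0.863% of all), and 12 of 47, or 25.5%, had an unadjusted p under 0.05, 3 higher and 9 lower, where 13% of all did. The dimmer MGMT probe set had 181 and 223 at 4 days and 89.6, 32.9 and 54.3 at 15 days (-1.61, -2.52 to -0.69, adjusted p = 0.0865), and ERCC3 had 151.7 and 165.5 at 4 days (-1.10, -2.06 to -0.14, adjusted p = 0.306). RAD23B (-0.71, -1.33 to -0.10) and APEX1 (-0.65, -1.24 to -0.07) did not overlap between the days either. The brighter MGMT probe set differed by -0.35 (-0.87 to 0.18), and of PRKDC and of XPA 1 probe set was lower and another higher. The ACTB signal ratio, 5′ over 3′, a sign of RNA integrity and labelling, also differed between these groups, 0.868 ± 0.17 (SD, n = 2) at 4 days and 0.574 ± 0.033 (SD, n = 3) at 15 days. The same ratio for GAPDH was not lower at 15 days, with 0.97 ± 0.0325 (SD, n = 2) at 4 days and 1.06 ± 0.305 (SD, n = 3) at 15 days. With the ACTB ratio as a covariate 0 of 47 were called, where 61 of all 7535 were. ERCC3 then differed by -0.58 (adjusted p = 0.717), and the smallest adjusted p of the repair probe sets was 0.082. Day, handling and RNA integrity cannot be told apart with these animals.

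Repair and damage genes outside the 30 were not called in the treatment comparisons either. Of 57 other DNA repair genes 26 were represented, and by limma 0 of 26 were called in each of the 9 comparisons that involve treated animals. For 400 mg/kg/day at 15 days, where 2.14% of all probe sets were called and 12.5% had an unadjusted p under 0.05, 3 of the 26 had an unadjusted p under 0.05. Those with the smallest p there were the mismatch gene MSH3 (-1.21, -2.12 to -0.30, adjusted p = 0.2) and the flap endonuclease FEN1 (0.65, 0.10 to 1.21, adjusted p = 0.282). Of 20 p53 targets and checkpoint genes 9 were represented and 0 called in the same 9 comparisons, with 2 at an unadjusted p under 0.05 for 400 mg/kg/day at 15 days. They differed in opposite directions. PLK2, a stress-inducible kinase, differed by 0.83 (0.11 to 1.54, adjusted p = 0.291) there, by 0.86, 1.04 and 1.21 at 150, 30 and 3 mg/kg/day, and by -0.95 (-1.89 to -0.02, adjusted p = 0.636) at 4 days. CDKN1A, the p53-induced cell cycle inhibitor, had a mean intensity of 229 ± 21.4 (SD, n = 3) in vehicle animals and of 113 ± 81.3 (SD, n = 4) at 400 mg/kg/day (-1.16, -2.18 to -0.14, adjusted p = 0.307). Of 20 proliferation genes 10 were represented, and 0 were called in those comparisons, with 0 at an unadjusted p under 0.05 for 400 mg/kg/day at 15 days. Between vehicle animals of the 2 days, 1 of the other repair genes, XRCC2, rose (2.15, adjusted p = 0.00781) and 1 checkpoint gene, BAX, fell (-2.66, adjusted p = 0.000771) from 4 to 15 days.

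Genes of oxidant handling were measured in the same fit and some of them were called. NQO1, a quinone reductase, rose from a mean intensity of 216 ± 70.5 (SD, n = 3) in vehicle animals to 1257 ± 393 (SD, n = 4) at 400 mg/kg/day over 15 days (2.46, 1.93 to 2.98, adjusted p = 5.45e-06), and rose by 1.76 at 150 mg/kg/day and by 2.31 at 4 days. TXN, thioredoxin, rose by 1.35 (0.96 to 1.74, adjusted p = 0.00017) at 400 mg/kg/day over 15 days and by 1.20 at 4 days. In all, 3 of 11 represented antioxidant genes were called higher and 0 lower at 400 mg/kg/day over 15 days, where 2.14% of all probe sets were called. Their median was 0.46, against -0.03 over all genes. These lists were chosen with earlier results of these data known, so their contrast with the repair genes is a description only. Of 7 represented genes of peroxisomal oxidation 1 was called, higher, at 400 mg/kg/day over 15 days: HSD17B4, the bifunctional enzyme of peroxisomal beta-oxidation (0.90, 0.43 to 1.37, adjusted p = 0.0339). ACAA1, the peroxisomal thiolase, rose by 1.03 at 150 mg/kg/day (adjusted p = 0.00394) and differed by 0.54 (adjusted p = 0.113) at 400. CAT, catalase, which breaks down hydrogen peroxide, differed by 0.45 (-0.29 to 1.19, adjusted p = 0.706) at 400 mg/kg/day over 15 days.

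Array medians ran from 55 to 71.6, and each array's correlation to the rest of its group from 0.846 to 0.921. The lowest correlation belonged to 30 mg/kg/day replicate 4. The tissue label was checked against 8 hepatocyte markers, whose summed intensity was 90530 to 101500 in vehicle animals and 67140 to 80550 at 400 mg/kg/day, both at 15 days. The markers did not move together: at 400 mg/kg/day over 15 days CYP2E1 fell by 3.56 and CYP3A4 rose by 1.31 (adjusted p = 0.000161 and 0.00577), while ALB had a mean intensity of 23510 in vehicle animals and 23610 at 400 mg/kg/day. Summed intensities of 6 of 8 Kupffer cell and macrophage markers were 3360 to 5033 in vehicle animals at 15 days and 2185 to 3011 at 400 mg/kg/day. Of these 6, 0 were called (2.14% of all), and CD14 alone had means of 3039 and 1851. Endothelial marker sums were 1958 to 2226 and 1321 to 1765 in those groups. Stellate cell and fibroblast sums were 619 to 856 and 387 to 592, with TIMP1 called lower by limma (adjusted p = 0.0228). Sums of T and NK cell, B and plasma cell and cholangiocyte markers overlapped between the groups. In whole tissue, fewer cells of a type and less RNA per cell cannot be told apart, and the part of these differences in the repair gene values was not tested. The spread within groups was similar for the 26 genes, with a median SD of 0.40 on the log2 scale, and for all tested probe sets, with 0.44. The small groups limit the precision, most of all at 4 days, where 11 of 26 intervals lay within -1 and 1.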

How the data were processed

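Liver RNA of 23 monkeys was hybridised to human arrays, 1 per animal. The authors deposited MAS5 intensities of each probe set, not in logs (the tool is named in the submitters' processing notes). Its version and settings are not given in the sources used here. Trimmed array means lay between 150.06 and 150.08, so no further scaling was applied.

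A pseudocount of 16 was added before log2 was taken, which compresses differences of dim probe sets. Apart from 67 controls, the 7535 probe sets whose mean log2 reached the 40th percentile were tested. A gene was represented by its brightest tested probe set among those naming it alone. One model of the 7 groups was fitted with limma 3.58.1 in R 4.3.3 (16 residual and 6.63 prior degrees of freedom, intensity trend, two-sided, Benjamini-Hochberg over all tested probe sets). Values in parentheses beside a difference are 95% intervals from that fit. The script was tested on simulated data.

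Values of each animal are given for OGG1, APEX1, XRCC5, GADD45A, GADD45B and, per comparison, the 2 repair genes with the smallest p; further probe sets and LIG3 were added after their values were seen. Other lists are represented by called genes or the smallest p. Members and lists were chosen with earlier results of these data known. The labels name no pairing by replicate number, and none was used in the fit. Deviations of same-numbered arrays at 15 days correlated between -0.0873 and 0.0719, which cannot exclude shared handling. Alternatives covered the pseudocount, filter, scaling, variance options, array weights, a replicate block, the ACTB ratio as covariate, separate fits, probe set averaging and leaving out each animal. No sequence or coordinate is given, since the array's probe sequences and a matching genome were not used here.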

Additional observations from a re-analysis of the deposited data

Results flagged for a closer look

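Of 104 sets of 4 animals examined, 1 for each represented repair gene and dose at 15 days, 6 held an animal whose gap to the others exceeded Dixon's 95% critical value for its share of the range, and chance flags about 1 in 20. At 30 mg/kg/day replicate 4 was high for APEX1, with an intensity of 553.7 where the others had 352.1 to 362.7, and for PARP1, with 70 where the others had 12.6 to 19.5. That array had the lowest correlation to its group. DDB1 was low in 150 mg/kg/day replicate 3, 483.8 against 615.8 to 635.2. ERCC2 was low in 3 mg/kg/day replicate 1, 192.2 against 260.7 to 266.1. ATM was high in 3 mg/kg/day replicate 2, 102.9 against 27.8 to 29.6. GADD45A was low in 400 mg/kg/day replicate 4, 163.6 against 198.5 to 205.4.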

How the results depend on the processing

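The counts of called repair probe sets were 0 in the reported fit and stayed 0 in all but 6 of the recomputed values, 4 of 131 under other settings and 2 of 90 with an animal left out. For 400 against 3 mg/kg/day the count was 1 with a filter at the 60th percentile (ERCC3, adjusted p = 0.0461) and 1 with the replicate block (ERCC3, adjusted p just under 0.05). Leaving out 1 animal gave 0 to 2. For the vehicle animals of 15 against 4 days it was 1 with a pseudocount of 64 (the dimmer MGMT probe set, adjusted p = 0.043) and 2 with array weights (the dimmer probe sets of MGMT and XRCC6, smallest adjusted p = 0.0133), and 0 with each animal left out. The replicate block changed no other count. Of 19 arrays at 15 days, 6 correlated best with their own number, which does not settle whether animals in a block shared more than a number.

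The median difference of the repair genes moved by more than 0.103, the within-group SD of that median over arrays, in 3 of 126 values under other settings and 7 of 71 with an animal left out. For 400 against 3 mg/kg/day it was 0.0846 with a filter at the 60th percentile and -0.0663 to 0.104 with an animal left out. For 150 mg/kg/day against vehicle it was 0.0599 as the mean over probe sets and 0.089 to 0.203 with an animal left out. With an animal left out it was -0.13 to 0.0912 at 3 mg/kg/day, -0.0223 to 0.145 at 4 days and -0.0262 to 0.116 for the difference between days. Between vehicle animals it was -0.306 with the stricter filter and -0.284 to 0.000803 with an animal left out. Since no repair probe set was called, no called direction could reverse. The ERCC3 difference for 400 against 3 mg/kg/day was -1.58 with a pseudocount of 1 and -0.74 with 64. The cause of these shifts was not tested.

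Precision is set by groups of 2 to 4 animals and by signal over background, since 16 of 47 tested probe sets had geometric mean intensities between the filter's limit and 80. Differences under 2-fold in a single gene were mostly inside the intervals, and absence of a call does not show that a gene kept its level.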
